A study of Mus musculus with 19 samples.

Results

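Among 90154 regions of accessible chromatin measured while mouse neural stem and progenitor cells (NSPs) became astrocytes, 117 met a dip-and-recover rule. In the deposited values their mean signal was lower at 24 h and 72 h than in NSPs and mostly back at 1 week. Which peaks met the rule depended much on single libraries and on the scaling. The members were chosen by their group means in the untreated libraries. A peak was kept if its NSP mean was at least 50 normalised reads, if its means at 24 h and at 72 h were each at most 0.6 times NSP, and if its 1 week mean was at least 0.8 times NSP. Of the 61278 peaks with an NSP mean of at least 50, 9549 were at most 0.6 times NSP at both early times. Of those, 8954 were still at most 0.6 times NSP at 1 week, 478 lay between 0.6 and 0.8, and the 117 members were above. Because the dip and the recovery chose the peaks, they are described below and not tested.

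The cells were C57BL/6J neural stem cells of the ventricular zone at embryonic day 14, grown as floating spheres with EGF and then plated in medium with serum to become astrocytes. The groups were NSPs (3 libraries), untreated cells at 24 h (3), at 72 h (3) and at 1 week (4), and cells differentiated for 24 h (3) or 72 h (3) with 50 ng/ml of TNF, a cytokine of inflammation. The 1 week cells were untreated. Cultures came from single embryonic brains, and the methods speak in general of independent biological experiments, but neither they nor the labels tie a library to an embryo. The p-values therefore measure the spread between these libraries, which may be technical. The names of all 72 h and 1 week libraries carry a tag that NSP and 24 h libraries lack, and what it marks is not given, so where a 72 h or 1 week group is compared with NSP or 24 h it cannot be told apart from time. The fall from NSP to 24 h and the rise from 72 h to 1 week lie within libraries of like names. Reads in a peak are summed over many cells, so fewer open cells and less opening per cell cannot be told apart either. At the gene ends of an astrocyte marker list (14 of 18 genes had a peak there) the median was 0.759 times NSP at 24 h and 0.945 at 1 week. At those of a neural progenitor list (14 of 16 genes) it was 0.711 and 0.815. Over all 12316 gene-end peaks with an NSP mean of at least 50 normalised reads the medians were 0.811 and 0.994, above those of both lists. Genes with no peak there were Aqp4, Gjb6, Slc14a1 and Nfia of the first list and Pax6 and Prom1 of the second.

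In ATAC-seq, a transposase cuts DNA that is not wrapped in tight chromatin, and the number of reads over a region rises with how often it is open. Promoters are open in most cell types, whereas enhancers, often far from genes or inside introns, tend to be open in particular cell types or states. When progenitors differentiate, many progenitor enhancers close for good. A region that closes and reopens is open in both the starting and the later cells.

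Single libraries and the scaling decided much of the membership. Reads in peaks ranged from 28636739 to 39349111 in NSP libraries and from 9640256 to 25165008 in all others, the lowest being 1 week replicate 3. NSP replicate 1 stood apart from the other NSP libraries. Over the members, the ratio of NSP replicate 1 to the mean of replicates 2 and 3 ran from 0.190 to 4.07, with a median of 1.06. Of the members, 41 (35.0%) were above 1.25 and 28 (23.9%) below 0.8. Over all peaks with an NSP mean of at least 50 the ratio ran from 0.0731 to 33.2, with a median of 0.982. Of those peaks, 24.9% were above 1.25 and 29.8% below 0.8, so a wide spread was not particular to the members. At the 39 members within 1 kb of a gene end the median ratio was 1.35, against 1.11 at all 12316 gene-end peaks with an NSP mean of at least 50. Without NSP replicate 1, 139 peaks met the rule, but only 41 of the 117 were among them. Of the 76 that dropped out, 48 no longer dipped to 0.6 and 28 no longer reached 0.8 at 1 week. Against NSP replicates 2 and 3 alone, 100 of the 117 were at or below 0.7 at both early times. In 115 every 24 h and 72 h library lay below both of those NSP libraries. The same libraries helped to choose the peaks, so these counts follow in part from the rule and do not test the dip. What sets NSP replicate 1 apart was not tested.

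**Figure D1:**
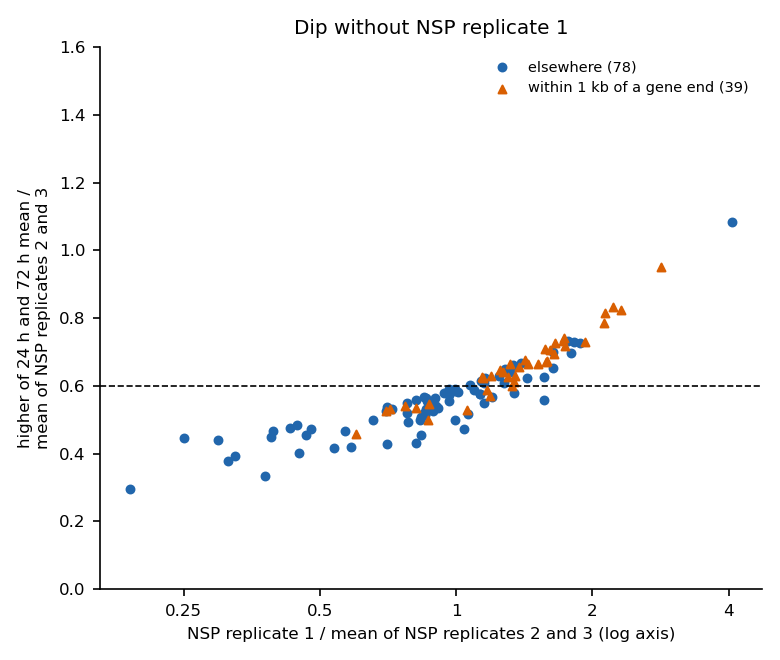
The horizontal axis (log scale) gives NSP replicate 1 over the mean of NSP replicates 2 and 3, and the vertical axis the higher of the 24 h and 72 h means over that same mean, for each of the 117 peaks. The 48 peaks above the dashed line at 0.6, 28 of them triangles (gene ends), no longer dip to the threshold when NSP replicate 1 is left out.

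The deposited values left the median of all peaks at log2 ratios of -0.07 at 24 h and -0.06 at 72 h against NSP, whereas scaling by total reads in peaks moved these medians to 0.12 and 0.21. With total-read scaling 8 peaks met the rule, all of them members. They lay in Mthfd1l (2 peaks), Trio and Arhgap24, at the end of Sirt4, and nearest to Myc, Map3k7 and Eef1a1. With TMM scaling 55 peaks met it, again all members, and with loess offsets 60 did, of which 24 were members. With total-read scaling the median of the members was 0.629 times NSP at 24 h and 0.667 at 72 h, where the median of all peaks was 1.09 and 1.16. The members were chosen to be low at these times, and this scaling applies 1 factor to all peaks of a library. Their place below all peaks therefore follows from the choice and does not test the dip.

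With each of the 13 untreated libraries left out in turn, 14 members met the rule every time. They were named after their values were seen, and 4 of them lay at gene ends: Bcl2, an inhibitor of cell death, Sirt4, a mitochondrial sirtuin, Timp4, an inhibitor of metalloproteinases, and Smc1a, a cohesin subunit. Inside genes were peaks of Nes, the intermediate filament of neural progenitors, Arhgap24, Trio, Hmga2, a chromatin protein of dividing progenitors, Cdkal1, a tRNA-modifying enzyme, Mast3, a kinase, and Tmem230. Outside genes they were nearest to Eef1a1, Slc16a1 and Lrrc74a. TMM scaling kept 12 of the 14, all but Nes and Mast3. With total-read scaling only Trio, Arhgap24, Sirt4 and Eef1a1 of the 14 met the rule. With loess offsets only Hmga2, Trio, Slc16a1, Arhgap24 and Eef1a1 did. Bcl2 and Timp4 thus met it with TMM alone, and Nes and Mast3 with none of these scalings.

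At Bcl2 (chr1:106714063-106714563) NSP libraries had 1357, 1123 and 1168 normalised reads, 24 h libraries 633, 758 and 568, 72 h libraries 548, 602 and 605, and 1 week libraries 1097, 1028, 1149 and 1181. No early library reached the NSP or 1 week libraries, which overlapped each other. At Sirt4 (chr5:115489656-115490156) the means were 1414 ± 173 in NSPs (SD, n = 3), 737 ± 100.0 at 24 h, 659 ± 21.0 at 72 h and 1277 ± 169 at 1 week (n = 4). At Timp4 (chr6:115252030-115252530), which lies within Syn2, NSP libraries had 1103, 1013 and 1079.8, 24 h libraries 502, 538 and 498, 72 h libraries 598, 545 and 519, and 1 week libraries 972, 925, 997 and 1051. The early values were about equally low at both times, and the 1 week range again overlapped NSP.

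Inside Arhgap24 (chr5:102845011-102845511) NSP libraries had 753, 1019 and 1124 and 24 h libraries 475, 499 and 402. The 72 h libraries had 401, 341 and 366, and the 1 week libraries 901, 828, 1083 and 879. No early library reached the NSP or 1 week libraries. Inside Nes (chr3:87974229-87974729) NSP libraries had 524, 555 and 561, 24 h libraries 304, 258 and 307, 72 h libraries from 319 to 326, and 1 week libraries 597, 628, 627 and 581. Here all 1 week libraries were above all NSP libraries, at 1.11 times their mean. A further member 2.02 kb outside Nes (chr3:87982218-87982718) had NSP values of 138, 363 and 368 and left the set without NSP replicate 1, because its 1 week ratio was then 0.638. Between the means at 72 h and 24 h the members as a whole showed no common direction: 56 of 117 were lower at 72 h.

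**Figure D2:**
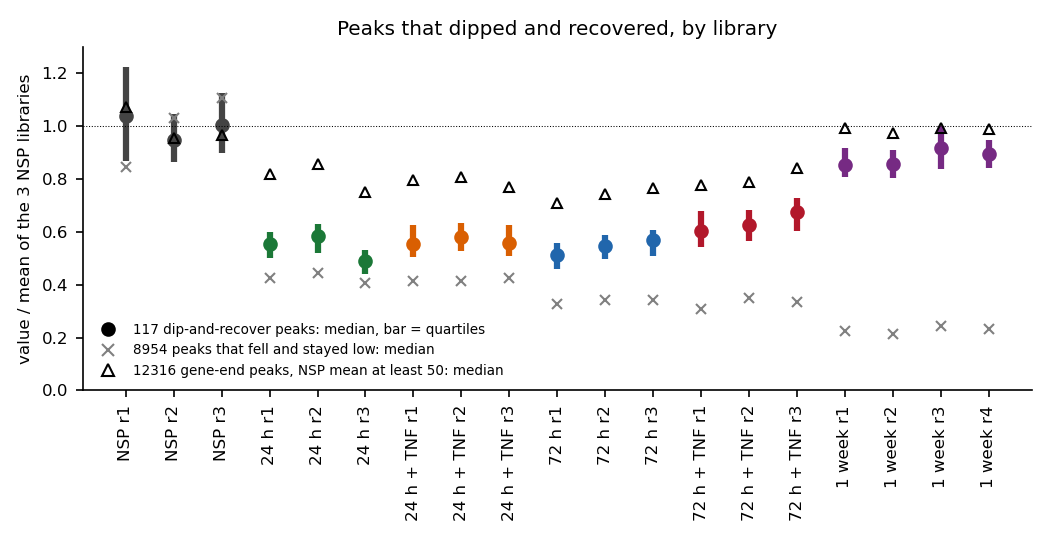
Each column is a library, and the vertical axis is the value over the mean of the 3 NSP libraries. Filled circles and bars are the median and quartiles of the 117 peaks, crosses the median of the 8954 peaks that fell and stayed low, and open triangles the median of 12316 gene-end peaks. The members sit between 0.490 and 0.586 at 24 h, between 0.513 and 0.570 at 72 h and between 0.853 and 0.919 at 1 week, where the crosses lie between 0.213 and 0.242.

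Members varied in depth of dip and in level. Their NSP means ran from 56.9 to 2887 normalised reads, with a median of 631, against a median of 162 for peaks that fell and stayed low. The higher of the 24 h and 72 h ratios was above 0.55 in 83 members, from 0.5 to 0.55 in 22 and at most 0.5 in 12, so most members lay close to the threshold. At 1 week 75 members were under 0.9 of NSP, 26 lay from 0.9 to 1 and 16 were at or above NSP. By limma, 115 members were called lower than NSP at 24 h (an adjusted p under 0.05), beside 23% of the 88919 tested peaks. At 72 h 115 were called lower (30.9% of tested peaks were), and 114 were called higher at 1 week than at 72 h (22.5% were). Every 24 h library was below every NSP library in 106 members, and every 72 h library was in 103. Every 1 week library was above every 72 h library in 116. The share of all peaks without such overlap was not computed. These counts follow from the choice of peaks and nothing is read from them.

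At the edges of the rule, the shallowest dips inside it were at Klf7 (0.59984 of NSP) and G2e3 (0.59915), and the first peaks outside it were at Aldh1l1 (0.60009) and Fermt2 (0.60136). The smallest recoveries inside were near Rdm1 (0.80099) and Ier2 (0.80109), and the largest outside were at Mroh5 (0.79988) and Sh3bp4 (0.79932). The lowest NSP means inside were near Rnf32 (56.9) and Map3k7 (59.2), and the highest outside were at Ostf1 (48.8) and Arhgap20 (39.9). No gap separates members from their neighbours.

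**Figure D3:**
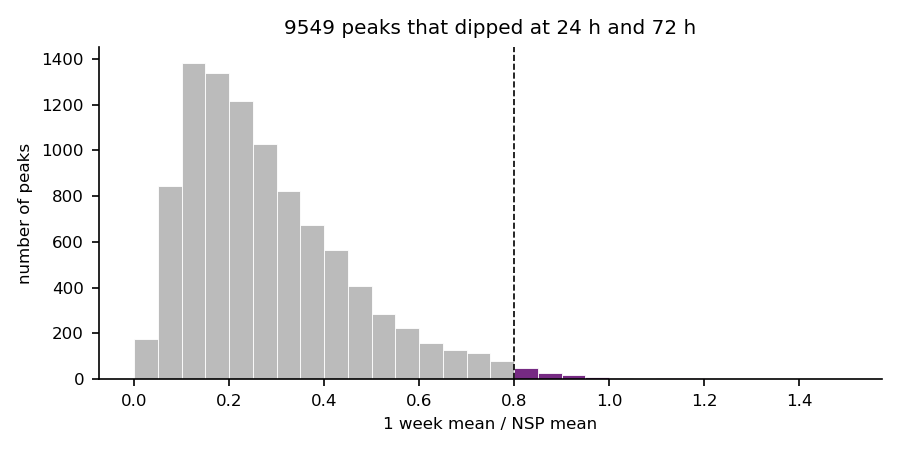
The horizontal axis is the 1 week mean over the NSP mean and the vertical axis the number of peaks, for the 9549 peaks at most 0.6 times NSP at 24 h and 72 h. The members, right of the dashed line at 0.8, form the far end of a continuous distribution, with 79 peaks in the bin from 0.75 to 0.8 and 48 in the bin from 0.8 to 0.85.

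Gene names below follow position: a gene with an end within 1 kb, otherwise the gene the peak lies in, otherwise the nearest gene end. Of the 117 members, 39 lay at most 1 kb from where a protein-coding gene starts or stops, 42 lay elsewhere inside a gene and 36 outside genes. The gene-end share of 33.3% (Wilson 95% interval 25.4 to 42.3) compares with 5.45% of the peaks that fell and stayed low, 20.1% of all peaks with an NSP mean of at least 50 and 14.9% of all peaks. These sets were not matched for signal. Their median NSP means were 162, 142 and 82.1 normalised reads, against 631 for the members, and the part of signal in the share was not tested. The interval takes the peaks as independent draws, although they share libraries and some are neighbours, so it does not cover the choice of library or scaling. The gene-end share moved outside it with the library that sets membership. It was 22.3% among the 139 peaks found without NSP replicate 1, 45.3% without replicate 2, 45.0% without replicate 3, and 6.67% with loess offsets. Gene-end peaks as a class also dipped in these values, with medians of 0.811 times NSP at 24 h, 0.742 at 72 h and 0.994 at 1 week over the 12316 with an NSP mean of at least 50. Members at gene ends were higher in NSPs (median 1065 normalised reads) than members inside genes (499.7) or outside them (429). The members lay on 20 chromosomes, 4 of them on X. In 7 places neighbouring members started within 100 kb of each other, including pairs in Mthfd1l (2072 bp apart), around Nes (7989 bp) and at the histone genes H2ac8 and H2bc6 (14722 bp). Histone genes have near-identical copies, so reads there could be split between genes.

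Promoter sequence was available for 39 members, whose peaks overlap 47 RefSeq promoter windows of build GRCm38 (6 peaks overlap windows of a second gene and 2 overlap 2 windows of the same gene). Of each window, the 250 bases before the start were searched, on both strands, for 15 short motifs. Windows at members had a median of 18 CpG and 63.6% GC, close to the 17 and 61.2% of the 12634 windows under peaks with an NSP mean of at least 50, and above the 7 and 55.6% of the 427 windows under peaks that fell and stayed low. CCAAT was found in 22 of 47 windows (46.8%) against 36.4% under peaks with an NSP mean of at least 50, 30.2% under peaks that stayed low and 33.8% of all 32851 windows. GGGCGG, the GC box, was in 35 windows (74.5%, against 61.0%, 37.0% and 32.7%). TGACGTCA, the cyclic AMP response element, was in 4 windows (8.51%, against 2.92%, 3.98% and 1.55%). CACGTG, the E-box, was in 7 (14.9%, against 8.52%, 6.32% and 6.02%). Other motifs were less frequent than under peaks with an NSP mean of at least 50: GGAATG (2.13% against 10.1%), ACAATG (2.13% against 5.68%), GCGCATGC (2.13% against 4.71%), GTTGCCA (0% against 3.66%) and TGACGCAA (0% against 0.760%). The remaining 6 were CCGGAAGT (6.38% against 6.08%), AAGATGGC (2.13% against 2.07%), CAGCTG (14.9% against 12.3%), TGANTCA (8.51% against 4.00%), TATAAA (10.6% against 5.30%) and TTGGCNNNN (48.9% against 45.6%). With 47 windows, some of which overlap each other, these shares are descriptions, and a match is not a bound site.

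The windows below are shown for Jun, the gene-end member with the highest NSP mean, for Bcl2 and Timp4, which stayed members with any library left out, and for Creb5, Lmcd1, Gk5 and Gpbp1, which hold TGACGTCA. Each runs 5′ to 3′ towards the gene's start, with matches to any of the searched motifs other than the gapped TTGGCNNNN in capitals on either strand. In Creb5 the E-box and the cyclic AMP element overlap.
Jun (chr4:95052223-95052472, minus strand): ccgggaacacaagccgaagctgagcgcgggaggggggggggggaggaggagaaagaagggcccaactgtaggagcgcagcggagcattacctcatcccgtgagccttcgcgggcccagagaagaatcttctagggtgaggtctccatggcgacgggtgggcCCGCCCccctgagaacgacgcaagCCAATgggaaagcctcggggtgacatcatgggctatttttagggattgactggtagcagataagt
Bcl2 (chr1:106714291-106714540, minus strand): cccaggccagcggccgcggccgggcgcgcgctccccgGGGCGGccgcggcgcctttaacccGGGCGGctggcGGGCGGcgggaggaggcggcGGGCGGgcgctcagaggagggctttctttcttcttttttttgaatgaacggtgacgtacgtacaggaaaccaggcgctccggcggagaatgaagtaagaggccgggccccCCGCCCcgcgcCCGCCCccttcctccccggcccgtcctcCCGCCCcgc
Timp4 (chr6:115252206-115252455, minus strand): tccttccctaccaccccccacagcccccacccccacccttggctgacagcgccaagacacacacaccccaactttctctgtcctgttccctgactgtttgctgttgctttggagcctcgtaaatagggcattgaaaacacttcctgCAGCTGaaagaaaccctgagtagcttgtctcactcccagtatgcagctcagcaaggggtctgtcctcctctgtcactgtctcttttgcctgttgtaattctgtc
Creb5 (chr6:53287053-53287302, plus strand): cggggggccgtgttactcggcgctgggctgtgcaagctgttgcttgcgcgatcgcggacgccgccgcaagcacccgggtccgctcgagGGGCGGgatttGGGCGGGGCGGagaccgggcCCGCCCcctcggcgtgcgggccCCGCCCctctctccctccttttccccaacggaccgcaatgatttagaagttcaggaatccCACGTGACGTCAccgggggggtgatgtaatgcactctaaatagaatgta
Lmcd1 (chr6:112273508-112273757, plus strand): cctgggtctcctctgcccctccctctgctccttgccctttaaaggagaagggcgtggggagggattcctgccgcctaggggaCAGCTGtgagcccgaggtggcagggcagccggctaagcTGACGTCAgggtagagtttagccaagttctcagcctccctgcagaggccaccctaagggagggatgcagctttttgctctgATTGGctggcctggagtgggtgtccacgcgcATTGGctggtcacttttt
Gk5 (chr9:96119179-96119428, plus strand): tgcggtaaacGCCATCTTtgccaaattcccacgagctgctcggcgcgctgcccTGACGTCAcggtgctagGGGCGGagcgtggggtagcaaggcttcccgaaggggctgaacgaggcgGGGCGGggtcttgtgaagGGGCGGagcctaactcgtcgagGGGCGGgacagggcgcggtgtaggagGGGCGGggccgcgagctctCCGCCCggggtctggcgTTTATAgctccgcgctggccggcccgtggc
Gpbp1 (chr13:111490128-111490377, minus strand): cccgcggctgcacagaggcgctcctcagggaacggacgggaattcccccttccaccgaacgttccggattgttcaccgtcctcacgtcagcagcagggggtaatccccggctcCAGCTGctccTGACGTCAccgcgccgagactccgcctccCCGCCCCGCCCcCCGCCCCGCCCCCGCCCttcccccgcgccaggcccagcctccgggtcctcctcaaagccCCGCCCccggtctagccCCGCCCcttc
Of the 250 bases shown, all lie inside the member peak except at Gpbp1, where 144 do. The Bcl2 window holds 7 GC boxes and 36 CpG, whereas the Timp4 window holds no GC box and 2 CpG. Both stayed members with any library left out.

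The 6 members with the highest NSP means all left the set without NSP replicate 1. The peak 6.61 kb from Tex44 (chr1:86434406-86434906) had the highest, 2887 ± 631 (SD, n = 3). At Jun (chr4:95052040-95052540), which encodes an AP-1 transcription factor induced within minutes by growth factors and stress, NSP libraries had 3439, 2289 and 2473 normalised reads. The 24 h libraries had 1612, 1789 and 1339, and the 72 h libraries 1083, 1323 and 1538. At 1 week they had 2303, 2131, 2597 and 2223. The early libraries were below all NSP libraries, and the 1 week libraries overlapped the lower NSP libraries. Against NSP replicates 2 and 3 alone the Jun ratios were 0.664 at 24 h, 0.552 at 72 h and 0.971 at 1 week. Peaks inside Add3, a membrane skeleton protein, at Ptma, a nuclear acidic protein, at Klf7, a Krüppel-like factor, and inside Jund, another AP-1 gene, had NSP means from 2064 to 2611.

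Lists of genes with a known role put these members in context. Of 20 lists (8 of cell type markers, 12 of pathways), 17 had no member among their gene-end peaks. Of all 13456 gene-end peaks only 39 were members, so most lists of such size would hold none. Nothing is therefore read from the lists without a member. Immediate early genes, which respond within minutes to growth factors, had 30 gene-end peaks: 14 dipped, 10 of these stayed low and 1, Jun, was a member. Chromatin-modifying genes had 21 gene-end peaks, of which 3 dipped, none stayed low and 2 were members, Kmt2a and Ep300, a histone methyltransferase and a histone acetyltransferase. Among 22 gene-end peaks of the heat shock and unfolded protein list, 2 dipped and 1, at Ddit3, a stress-induced transcription factor, was a member. Ribosomal protein genes, with 58 gene-end peaks, had 2 that dipped and no member.

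Kmt2a and Ep300 show how far 1 library can carry the rule. At Kmt2a (chr9:44881236-44881736) the NSP libraries had 1577, 522 and 589 normalised reads, the 24 h libraries 526, 546 and 402, and the 72 h libraries 444, 554 and 586. The 1 week libraries had 813, 757, 724 and 890.0. NSP replicate 2 lay among the early libraries and replicate 3 barely above the highest of them, and against replicates 2 and 3 the early ratios were 0.884 and 0.950. At Ep300 the NSP libraries had 1255, 571 and 608, and the ratios against replicates 2 and 3 were 0.784 at 24 h and 0.814 at 72 h. At Ddit3 they were 0.705 and 0.671.

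**Figure D4:**
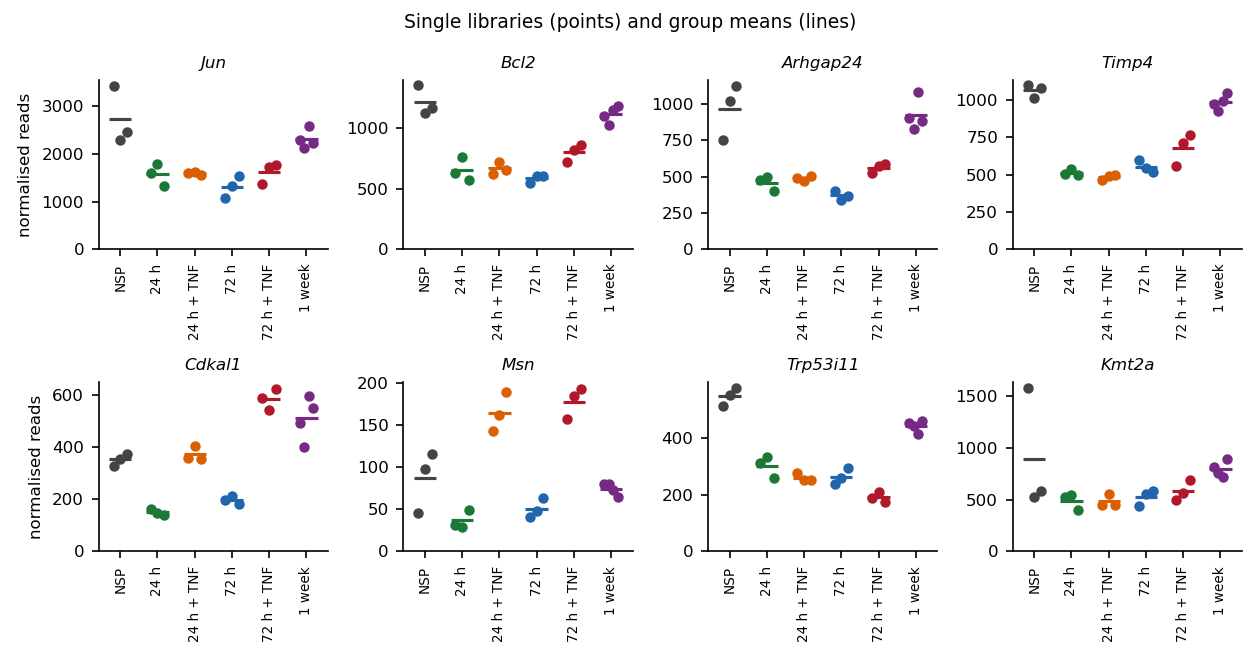
Normalised reads (vertical axis, from 0) in every library of 8 member peaks, with points for libraries and lines for group means. Jun, Bcl2, Arhgap24 and Timp4 fall at 24 h and 72 h and are back near NSP at 1 week, Cdkal1 and Msn are at or above NSP with TNF, Trp53i11 is lowest at 72 h with TNF, and the Kmt2a mean in NSPs is set by NSP replicate 1.

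The deepest dips, by the higher of the 24 h and 72 h ratios, were inside Mthfd1l, outside Nes, far from Map3k7, and inside Slc22a15, Ptch1 and Arhgap24. Inside Mthfd1l (chr10:4107681-4108181), a mitochondrial enzyme of one-carbon metabolism, NSP libraries had 91.1, 473 and 485 normalised reads, 24 h libraries 139, 112 and 131, and 72 h libraries 154, 139 and 133. NSP replicate 1 was here the low library, below all early libraries, and against replicates 2 and 3 the 1 week ratio was 0.626, under the rule. The peak inside Ptch1, the receptor of Sonic hedgehog, dipped to 0.428 and 0.471 of NSP from a mean of 178 ± 48.9 (SD, n = 3). The peak nearest to Map3k7 lay 1167 kb away at 59.2 ± 7.26, so no gene can be assigned to it by distance.

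The highest 1 week levels relative to NSP were inside Cdkal1 (1.44 times), inside Poc1b (1.36), near St3gal1 (1.29) and inside Me3 (1.20). The Poc1b value rests on NSP replicate 1: the NSP libraries had 250.0, 787 and 894, the 1 week libraries 816, 869.7, 955 and 865, and the ratio against replicates 2 and 3 was 1.04.

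TNF-treated libraries were not used by the rule. As a description beside NSP, 82 of the 117 members (70.1%) were also at most 0.6 times NSP at 24 h with TNF, and 38 (32.5%) at 72 h with TNF. For the peaks that fell and stayed low, these shares were 85.4% and 92.2%. Of all peaks with an NSP mean of at least 50 they were 21.0% and 29.7%. The members' share at 72 h with TNF was thus near that background. The median of the members was 0.563 times NSP at 24 h with TNF and 0.637 at 72 h with TNF. It was 0.423 and 0.334 for peaks that stayed low, and 0.819 and 0.809 for peaks with an NSP mean of at least 50. NSP libraries chose the members, so these ratios share libraries with the rule.

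The comparison of 72 h with TNF against 24 h with TNF uses no library of the rule and asks whether members already moved between these times in TNF-treated cells. It crosses the difference in library names. Of the 117, 98 had a positive log2 difference and the median was 0.16, against -0.01 over all tested peaks and -0.34 over peaks that fell and stayed low. By limma with Benjamini-Hochberg adjustment over all 88919 tested peaks, 6 members were called higher (5.13%, where 10.3% of tested peaks were) and 1 lower (0.855%, where 11.5% were). The count of members called higher was thus under the background, while their median was above it. It was 20 when the TNF-treated groups were fitted alone, with 16.2% of all peaks then called higher, and 3 without 24 h TNF replicate 1.

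The 6 were near Emp1, a membrane protein, near St3gal1, a sialyltransferase, near Atxn1, inside Cdkal1, at Timp4 and inside Me3, a mitochondrial malic enzyme. Near Emp1 (chr6:135410149-135410649) the 24 h TNF libraries had 109, 121 and 97.6 normalised reads and the 72 h TNF libraries 159, 208 and 169, a log2 difference of 0.71 ± 0.18 (SE, limma adjusted p = 0.00594). The untreated 72 h libraries, at 115, 98.1 and 125, overlapped those of 24 h. Inside Cdkal1 the TNF libraries had 357, 403 and 353 at 24 h and 586, 541 and 623 at 72 h, a difference of 0.65 ± 0.13 (adjusted p = 0.000863). At Timp4 they had 467, 491 and 495 at 24 h and 559, 712 and 767 at 72 h (0.47 ± 0.11, adjusted p = 0.00297). In each of the 3 the groups did not overlap.

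Near St3gal1 the difference was 0.67 ± 0.19 (limma adjusted p = 0.0108), near Atxn1 0.65 ± 0.18 (adjusted p = 0.0089) and inside Me3 0.39 ± 0.13 (adjusted p = 0.027). The peak near Trp53i11 (chr2:93142646-93143146), a p53-induced gene, went the other way, from 276, 252 and 252 at 24 h to 190.4, 209.9 and 176 at 72 h with TNF (-0.44 ± 0.13, adjusted p = 0.0133). Without 24 h TNF replicate 1 the limma adjusted p rose to 0.0744 near Atxn1, 0.0601 near St3gal1, 0.0768 inside Me3 and 0.059 near Trp53i11, and without 72 h TNF replicate 3 to 0.066 near Trp53i11. The Me3 call was also lost without 24 h TNF replicate 3 (limma adjusted p = 0.129), 72 h TNF replicate 1 (0.095) and 72 h TNF replicate 3 (0.066). These differences kept their sign.

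**Figure D5:**
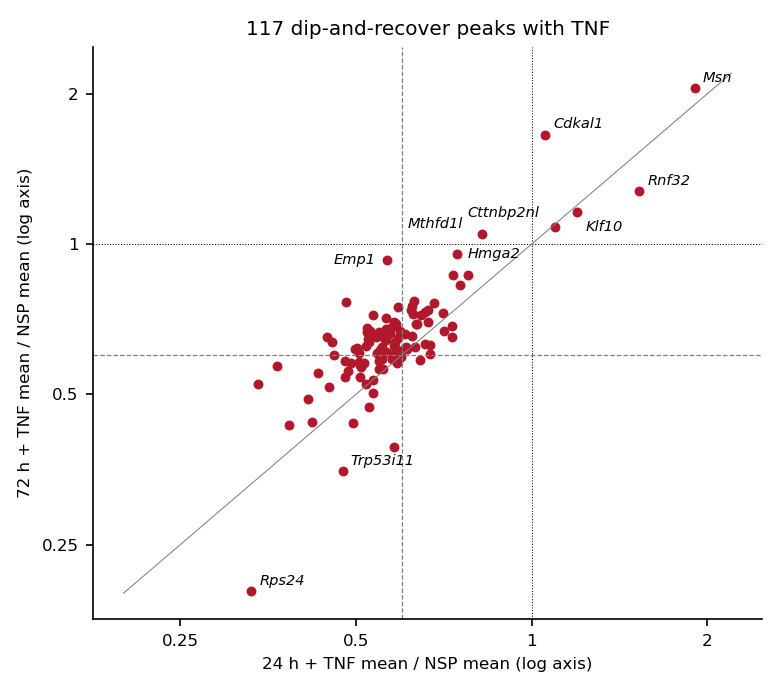
Each point is 1 of the 117 peaks, with the 24 h TNF mean over NSP on the horizontal axis and the 72 h TNF mean over NSP on the vertical axis, both on log scales. Dashed lines mark 0.6, dotted lines 1, and the diagonal equal values: 97 peaks lie above it, and Msn, Rnf32, Cdkal1, Klf10 and Cttnbp2nl are above NSP at both times, the last 2 only with the low NSP replicate 1 included.

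For TNF against untreated cells at the same time, the untreated libraries belong to the rule. A peak that enters the set because those libraries were low will tend to look higher with TNF, so the counts are descriptions beside the background. At 24 h, 11 members were called higher with TNF (7.06% of tested peaks were), or 7 without 24 h TNF replicate 2 or 3, and 0 lower by limma (3.53% were), with 3 lower at an unadjusted p under 0.05 (9.84% of tested peaks were) and 0 by edgeR and by DESeq2. At 72 h, 19 members were called higher (6.24% were) and 2 lower (5.55% were), or 1 lower without 72 h replicate 3 or 72 h TNF replicate 3. At gene ends 0 of 39 were called higher at 24 h and 3 of 39 at 72 h, and elsewhere 11 and 16 of 78. Of all gene-end peaks with an NSP mean of at least 50, 1.57% and 3.15% were called higher. The 3 at gene ends were Bcl2, Creb5 and Dusp6, the last a phosphatase that switches off ERK signalling. Over all tested peaks, the TNF effect at 72 h differed from that at 24 h in 1 peak, which was no member. By limma no member passed that test, and 12 (10.3%) did at an unadjusted p under 0.05, as did 7.51% of all tested peaks.

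In TNF-treated cells 5 members stood at or above their NSP mean at both times. The share of all peaks that did was not computed. At least 0.8 times NSP at both times with TNF was reached by 6 members (5.13%). The share was 41.5% of peaks with an NSP mean of at least 50 and 1.27% of peaks that stayed low. Inside Msn (chrX:96121863-96122363), which links actin to the membrane, NSP libraries had 46.1, 98.5 and 116 normalised reads and untreated libraries 31.9, 29.5 and 49.3 at 24 h and 41.2, 47.8 and 63.7 at 72 h. The TNF libraries had 143, 163 and 190.0 at 24 h and 157, 185 and 193 at 72 h, above every NSP and 1 week library. The 1 week libraries had 80.2, 80.3, 72.6 and 65.4. Msn left the set without NSP replicate 1, since its 1 week ratio was then 0.695.

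Inside Cdkal1 (chr13:29202563-29203063) NSP libraries had 328, 354 and 374, untreated libraries 161, 149 and 140.4 at 24 h and 197, 212 and 182 at 72 h, and 1 week libraries 491, 401, 596 and 547. The 24 h TNF libraries overlapped NSP, and the 72 h TNF libraries lay above all NSP libraries and overlapped 1 week. Among members above NSP at both times with TNF, Cdkal1 stayed in the set with any library left out. The other 3 were near Rnf32 (1.53 and 1.28 times NSP), Klf10 (1.20 and 1.16), a TGF-beta-induced factor, and Cttnbp2nl (1.10 and 1.08). Against NSP replicates 2 and 3 alone, Klf10 (0.956 and 0.924) and Cttnbp2nl (0.893 and 0.880) were below NSP at both times, while Msn, Rnf32 and Cdkal1 stayed above. Hmga2 was at 0.744 and 0.956 of NSP, and the Mthfd1l peak at 0.823 and 1.05, or 0.601 and 0.764 against NSP replicates 2 and 3.

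At the other end, the lowest mean over the TNF libraries relative to NSP was 310 kb from Rps24 (chr14:24807071-24807571), at 0.330 of NSP at 24 h and 0.202 at 72 h, followed by Ptch1 (0.385 and 0.434), Trp53i11 (0.474 and 0.350) and Stox2 (0.421 and 0.441). The NSP libraries of the Rps24 peak had 61.9, 176 and 219, so its ratio carries the low NSP replicate 1. At Trp53i11 the untreated 72 h libraries had 238, 259.6 and 296, above every 72 h TNF library, and at 1 week the untreated libraries had 456, 445, 414 and 461.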

How the data were processed

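Accessibility was measured by ATAC-seq in 19 libraries of 6 groups, taken from the sample titles. Per the submitters' processing notes and the methods, reads were checked with FastQC, trimmed with Trim Galore and aligned to mm10 with Bowtie2, mitochondrial reads were removed with SAMtools, peaks were called with MACS2 and blacklisted regions were dropped. Versions, duplicate handling and the transposase shift are not given in the sources used here. The deposited table gives a normalised signal per peak, and how it was normalised is not stated in the sources used here. Divided by the smallest value of their library, 100% of values were whole numbers within 0.1. These were taken as reads, which gave the depths. Positions are as in the deposited table. Values were taken as log2(value + 1) and fitted with limma-trend 3.58.1 (R 4.3.3) over all 19 libraries, two-sided, with Benjamini-Hochberg adjustment. A minimum count of 10 (filterByExpr, edgeR 4.0.16) kept 88919 peaks, every member included, and left out 1235. Fold changes on this scale understate low peaks. The fit was tested on simulated data. Gene ends, promoters and names came from RefSeq (GRCm38.p6). No genome sequence was used, so no sequence is shown for distal peaks. The members, the lists of genes and the rule for peaks named in the text (highest NSP, deepest dip, highest 1 week, called with TNF between times, highest and lowest with TNF, list genes) were chosen with earlier results of these data known. Peaks kept with every library left out were named after their values were seen. Alternatives covered scaling, tool (edgeR, DESeq2 1.42.0), filter, pseudocount, libraries and rule thresholds.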

Additional observations from a re-analysis of the deposited data

Results flagged for a closer look

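In 39 members that were named or that stayed in the set with every library left out, the 4 libraries of 1 week were examined for a value far from the rest (Dixon's test), and 2 had one. Near Atxn1, 1 week replicate 3 had 568 normalised reads, where the others lay from 421 to 436. Inside Trio the same library had 781, where the others lay from 615 to 642. This library is the shallowest of the series, with 9640256 reads in peaks, and its part in these values was not tested. Chance gives such a value in about 5% of groups, so 2 of 39 is close to that share. Without 1 week replicate 3, 110 peaks met the rule and 100 of the 117 members were among them. Near Atxn1 the other 3 libraries all exceed the NSP mean of 391.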

How the results depend on the processing

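The number of peaks that met the rule depended on scaling and thresholds: 8 with total-read scaling, 55 with TMM, 60 with loess offsets, 3 with a dip to 0.5 and recovery to 0.9, and 1749 with 0.7 for both. Leaving out a library gave 89 to 170 peaks, but different ones: 41 of the 117 were kept without NSP replicate 1, 75 without replicate 2 and 61 without replicate 3. With group medians 116 peaks met the rule, of which 46 were members, and with an NSP minimum of 100, 112 did. The gene-end share, with alternatives added after seeing the data, was 12.5% with total-read scaling, 6.67% with loess, 30.9% with TMM and 22.3% to 45.3% without an NSP library. Within 500 bp or 2 kb of a gene end it was 29.9% and 37.6%.

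Members called in the main fit kept their number within 1.5 times under scaling, pseudocount, filter, edgeR and DESeq2. Fitting the compared groups alone gave 20 higher for 72 h against 24 h with TNF, 2 lower for TNF at 24 h and 30 higher for TNF at 72 h. Leaving out a library gave 3 to 6 higher and 0 to 1 lower for 72 h against 24 h with TNF, 7 to 10 higher and 0 lower for TNF at 24 h, and 14 to 19 higher and 1 to 2 lower for TNF at 72 h. The cause of these changes was not tested, beyond the fewer libraries fitted.

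Libraries with the same number in their titles did not deviate together in all pairs (correlations from -0.0261 to 0.106), so the numbers were not used as pairs. The 72 h TNF libraries carry other numbers in their names than in their titles, so pairs by title may be mismatched there. Matched by name, TNF and untreated libraries at 72 h gave 0.031 and 0.023. For TNF at 24 h the same-numbered pairs gave 0.0339, 0.0256 and 0.106, and differently numbered pairs ran from -0.0661 to 0.0361. The replicate block also used the title numbers. With a replicate block, 6 members were called higher and 1 lower for 72 h against 24 h with TNF, 11 and 0 for TNF at 24 h, and 18 and 2 for TNF at 72 h. The shallowest library had 9640256 reads in peaks.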
